A study of Mus musculus with 6 samples.

Results

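Enzymes and regulators of lipogenesis, 10 genes in all, were followed on 6 Affymetrix mouse arrays: Me1, Acly, Acaca, Acacb, Fasn, Gpam, Dgat1, Dgat2, Thrsp and Mlxipl. They are 10 of the 19505 genes that the platform annotation names on this array, and each had 1 probe set, so the rule of taking the probe set with the highest mean decided nothing. They were chosen by pathway, with the differences between the groups known: Me1, Gpam and Acacb were selected on their measured MBELN minus control values. The samples were labelled colon of C57BL/6J mice. In the MBELN group (3 arrays) mice had been gavaged with exosome-like nanoparticles from mulberry bark, daily until day 7, at 10 x 10E+09 particles in 100 µl per dose as the label writes it. The control group (3 arrays) was titled PBS and labelled control mice. No genetic change is named for either group. Biotin-labelled cRNA was prepared from 90 ng of total RNA. Whether the arrays of a group stem from separate animals is not stated, and a p-value here covers the spread among the arrays alone. That spread includes differences in tissue content between arrays of the same group, given below, and some of it may be technical.

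Lipogenesis turns acetyl-CoA into triglyceride. ATP citrate lyase (Acly) makes cytosolic acetyl-CoA from citrate, acetyl-CoA carboxylases (Acaca and Acacb) make malonyl-CoA, fatty acid synthase (Fasn) builds palmitate with NADPH that malic enzyme (Me1) helps to supply, and Gpam and the Dgat enzymes attach fatty acids to glycerol. The pathway is strong in liver, fat and sebaceous glands, and its genes are controlled by SREBP-1c, by LXR and by ChREBP, the product of Mlxipl, which responds to glucose.

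The labelled tissue was checked first, because levels on these arrays cannot be read without it. Of 16 colonocyte markers, 14 were above background on control 1 and at most 1 on any other array, so the defining markers of colon were absent or nearly so on 5 of the 6 arrays. Among the tissue marker lists, the highest medians were found on control 3 for brain markers (16.20), on MBELN 1 for heart (19.03), on MBELN 2 for squamous epithelium (18.37) and skeletal muscle (14.87), and on MBELN 3 for liver (19.62), in log2 expression. Albumin (Alb) was at 19.93 on MBELN 3 and Muc2, the goblet cell mucin, at 19.59 on control 1. Control 2 was flat, with housekeeping genes at a median of 5.99 there and of 14.62 to 17.53 elsewhere. Background is the 95th percentile of an array's negative-control probe sets, and this threshold lay between 7.93 (MBELN 1) and 10.11 (control 2). Between 14.3% and 27.7% of probe sets exceeded it on 5 arrays, and 0.311% on control 2. The group comparison therefore sets arrays of different tissue content against each other, and treatment and tissue content cannot be told apart in it. In such bulk samples fewer cells of a type and less RNA per cell cannot be told apart either.

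**Figure D1:**
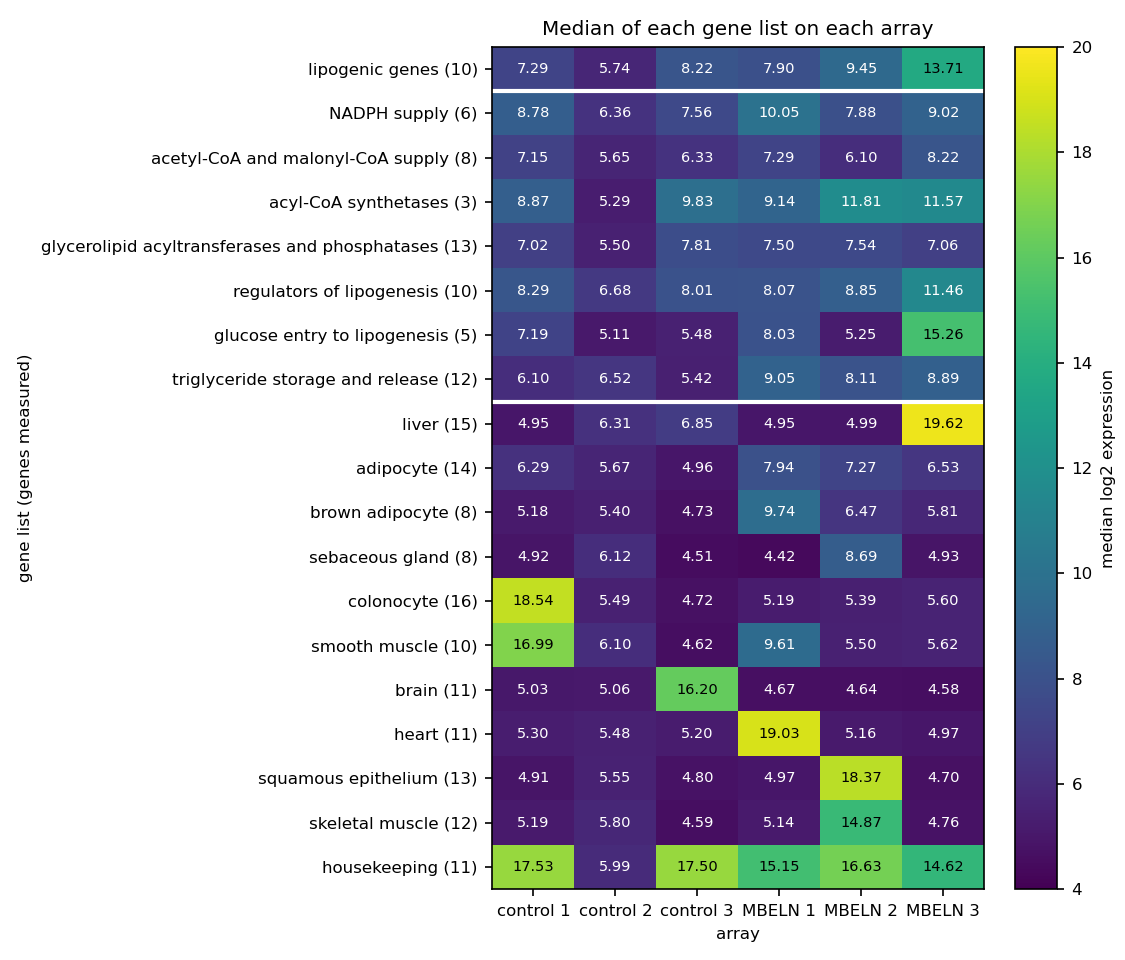
Median log2 expression of each gene list (rows, with the number of genes measured) on each of the 6 arrays (columns); white lines part the lipogenic genes, the lists of their pathway and the marker lists, and colours are to be read along a row. The 10 lipogenic genes have their highest median, 13.71, on MBELN 3, the array on which liver markers stand at 19.62.

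The sequences before the transcription start are shown for 5 of the genes. Me1 and Gpam were taken because their groups lay furthest apart. Fasn, Thrsp and Mlxipl were taken because all 3 peaked on MBELN 3, as 9 of the 10 genes did. RefSeq promoters (GRCm38.p6) were matched by symbol for 8 of the 10 genes, which leaves Dgat1 and Dgat2. The 250 bases before the most upstream listed start are those of Me1 (chr9:86695915-86696164, minus strand), Gpam (chr19:55127239-55127488, minus strand), Fasn (chr11:120824548-120824797, minus strand), Thrsp (chr7:97417551-97417800, minus strand) and Mlxipl (chr5:135089640-135089889, plus strand), each read 5′ to 3′ on the gene's strand. Capitals mark matches, on either strand, to 5 motifs. These were the NF-Y box CCAAT, the GC box GGGCGG, the E-box CACGTG, the TATA box TATAAA and the sterol element form TCACNCCAC.
Me1: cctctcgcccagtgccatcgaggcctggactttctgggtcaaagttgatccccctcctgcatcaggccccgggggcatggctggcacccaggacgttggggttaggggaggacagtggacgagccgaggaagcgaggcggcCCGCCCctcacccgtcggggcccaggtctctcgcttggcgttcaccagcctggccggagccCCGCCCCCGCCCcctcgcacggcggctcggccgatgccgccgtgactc
Gpam: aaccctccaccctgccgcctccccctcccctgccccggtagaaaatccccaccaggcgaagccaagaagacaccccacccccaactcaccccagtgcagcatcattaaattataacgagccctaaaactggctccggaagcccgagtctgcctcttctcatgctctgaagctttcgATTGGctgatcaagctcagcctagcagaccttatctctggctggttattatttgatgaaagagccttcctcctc
Fasn: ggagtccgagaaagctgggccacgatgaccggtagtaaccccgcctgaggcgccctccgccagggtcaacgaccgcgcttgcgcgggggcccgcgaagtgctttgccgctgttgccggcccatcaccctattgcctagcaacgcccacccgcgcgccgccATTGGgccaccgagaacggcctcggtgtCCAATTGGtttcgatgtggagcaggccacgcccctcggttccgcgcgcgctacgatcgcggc
Thrsp: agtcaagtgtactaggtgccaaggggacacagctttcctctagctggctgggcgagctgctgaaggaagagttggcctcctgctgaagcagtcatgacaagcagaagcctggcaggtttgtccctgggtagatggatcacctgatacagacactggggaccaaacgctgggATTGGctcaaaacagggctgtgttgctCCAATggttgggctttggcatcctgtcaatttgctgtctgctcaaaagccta
Mlxipl: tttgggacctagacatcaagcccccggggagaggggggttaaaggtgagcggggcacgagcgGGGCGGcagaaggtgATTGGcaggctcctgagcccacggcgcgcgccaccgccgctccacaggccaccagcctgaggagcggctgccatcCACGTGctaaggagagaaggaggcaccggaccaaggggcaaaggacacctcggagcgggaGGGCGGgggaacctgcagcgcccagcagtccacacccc
The CCAAT box was found in 5 of the 8 promoters (Gpam, Acacb, Fasn, Thrsp and Mlxipl), and in 34.5% of 27025 RefSeq promoters of the same length. Fasn held it at -90, -62 and -59, counted from the start to the leftmost base, where the matches at -62 and -59 overlap on opposite strands. Thrsp held it at -79 and -52, and Gpam at -74. The GC box was in 3 promoters (Me1, Acly and Mlxipl; 33.0% of all), with matches in Me1 at -109, -48 and -42, the last 2 adjoining. The E-box, of the type that ChREBP recognises in pairs, was in 1, that of Mlxipl itself at -98 (6.04% of all), and the TATA box in 1, that of Acacb (12.98%). The sterol element form was in 0 of 8 (1.03% of all), which says only that these letters are not in this window.

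Across the 10 genes the arrays differed widely. Most were above background on MBELN 3 (8 of 10), then on MBELN 1 and MBELN 2 (5 each), control 3 (4) and control 1 (3), while control 2 had 0. Over all 22206 probe sets the shares above background were 23.1%, 27.7%, 14.3%, 20.7%, 26% and 0.311% for MBELN 3, 1 and 2 and control 3, 1 and 2. The median of the 10 genes was 7.90, 9.45 and 13.71 for MBELN 1, 2 and 3 and 7.29, 5.74 and 8.22 for the controls. MBELN 3 was the highest array for 9 of the 10, all but Me1. It was so for 12.8% of all probe sets and 19.1% of the 9515 above background on at least 1 array. Control 2 was the lowest array for 8 of the 10, beside 29.1% of all probe sets and 55.2% of those 9515. Acly and Fasn were above background on every array but control 2, as were 8.34% of all probe sets, and Acacb and Dgat1 on no array, as were 57.2%. Closest to the threshold lay Me1 on control 3, at 8.90 against 8.89, and Fasn on MBELN 1, at 8.13 against 7.93, both just above it, and Acaca on MBELN 2, at 9.14 against 9.34, just below. At the 99th percentile of the negative controls 0 genes instead of 4 were above background on control 3, and 7 instead of 8 on MBELN 3.

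**Figure D2:**
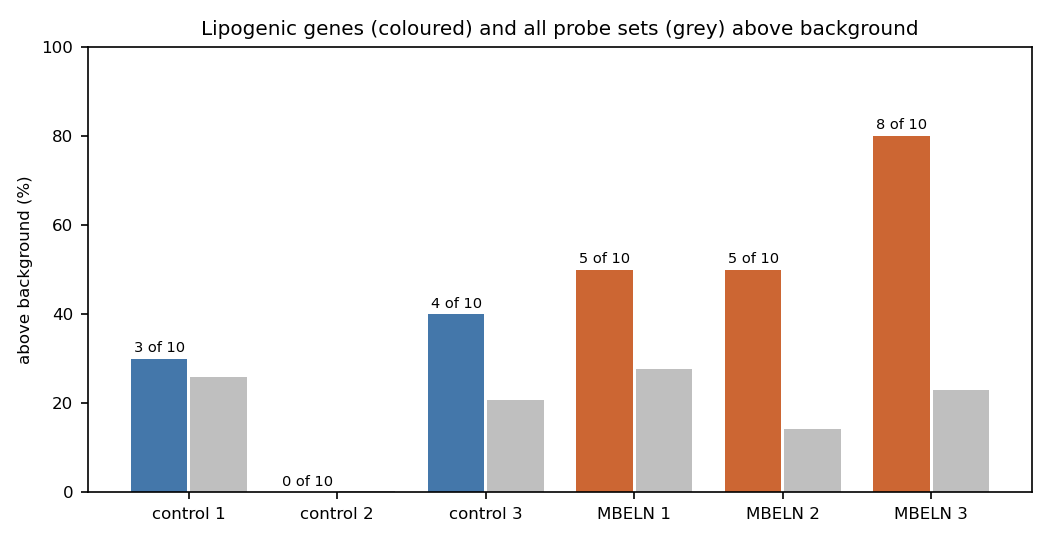
Share of the 10 lipogenic genes (coloured bars, with counts) and of all 22206 probe sets (grey bars) above background, in percent, on each array. MBELN 3 has 8 of 10 genes above background and 23.1% of all probe sets, and control 2 has 0 of 10 and 0.311%.

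Me1, the cytosolic malic enzyme, converts malate to pyruvate and yields NADPH (probe set TC0900002780.mm.2). Its log2 expression was 7.47, 5.59 and 8.90 on control 1, 2 and 3 and 11.52, 14.94 and 13.87 on MBELN 1, 2 and 3. It was the only one of the 10 to peak on MBELN 2, the array with squamous and skeletal muscle markers, and its lowest MBELN array lay 2.62 log2 units above its highest control array. Means were 13.44 ± 1.75 in MBELN and 7.32 ± 1.66 in control (SD, n = 3 each), a fitted difference of 6.13 (SE 1.22). Me1 was above background on all MBELN arrays but, of the controls, on control 3 alone, so this difference is not a measured fold.

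Acly, which splits citrate into acetyl-CoA and oxaloacetate, was above background on every array but control 2. It stood at 11.95, 5.91 and 11.98 on the controls and at 10.45, 12.42 and 14.27 on MBELN arrays. The groups overlapped, since MBELN 1 lay below control 1 and control 3, and the low control mean of 9.95 ± 3.50 (SD, n = 3) rests on control 2. The fitted difference of 2.43 (SE 1.94) was 0.41 without control 2.

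The carboxylases Acaca and Acacb make the malonyl-CoA that is used for synthesis and, near mitochondria, that limits entry of fatty acids into oxidation. Acaca was at 7.24, 7.01 and 8.12 on the controls and at 7.20, 9.14 and 11.00 on MBELN arrays, and exceeded background on MBELN 3 alone. Its fitted difference of 1.66 (SE 1.03) was 0.71 without MBELN 3, and no fold is given, since 5 of its 6 values lay below background. Acacb was at 4.46, 4.93 and 4.83 on the controls and at 7.11, 6.95 and 7.53 on MBELN arrays. These were narrow and separate groups, 2.02 log2 units apart at their nearest values, and yet every one of the 6 values lay below its array's background threshold, so no level and no fold can be given for Acacb.

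Fasn, the multifunctional enzyme that builds palmitate, had values of 8.55, 5.88 and 9.50 on the controls and 8.13, 10.65 and 14.30 on MBELN arrays. It was above background everywhere but on control 2, by only 0.19 log2 units on MBELN 1. MBELN 3 was 3.65 above the next array, MBELN 2, and MBELN 1 lay within the range of the controls. The fitted difference of 3.04 (SE 1.77) was 1.41 without MBELN 3.

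Gpam, the mitochondrial acyltransferase that takes the first step of glycerolipid synthesis, resembled Me1 (probe set TC1900001691.mm.2). It stood at 7.34, 6.44 and 9.33 on the controls and at 11.54, 12.65 and 13.56 on MBELN arrays, and was above background on control 3 and on all MBELN arrays. The groups were 2.21 log2 units apart at their nearest values. Means were 12.58 ± 1.01 in MBELN and 7.71 ± 1.48 in control (SD, n = 3 each), a fitted difference of 4.87 (SE 0.94). With control 1 and control 2 below background, this too is not a measured fold.

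Dgat1 and Dgat2, enzymes of unrelated sequence, both carry out the last step of triglyceride synthesis. Dgat2 was at 9.38, 4.99 and 8.33 on the controls and at 11.27, 9.76 and 15.56 on MBELN arrays. Its groups did not overlap either, but MBELN 2 lay only 0.38 above control 1, while MBELN 3 was 4.29 above the next array. Dgat2 was above background on control 1 and on all MBELN arrays, but not on control 2 and control 3. The fitted difference was 4.63 (SE 1.84), and 2.95 without MBELN 3, and as for Me1 it is not a measured fold. Dgat1 was below background on every array, at 7.09, 4.70 and 6.14 on the controls and 6.46, 7.08 and 7.35 on MBELN arrays, with overlapping groups.

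Both regulators among the 10 genes were seen on MBELN 3 alone. Thrsp (Spot 14), a small protein that promotes fatty acid synthesis in liver and fat, was at 17.32 on MBELN 3 and between 5.41 (MBELN 2) and 7.74 (control 3) on the other 5 arrays. Mlxipl, which encodes ChREBP, was at 12.44 on MBELN 3 and between 5.37 (control 2) and 5.83 (MBELN 2) elsewhere. Both were below background on every array but MBELN 3, so their group means, 10.13 ± 6.33 for Thrsp and 7.98 ± 3.87 for Mlxipl in MBELN (SD, n = 3), describe 1 array. No fold is given for either. Together with Acaca these are 3 of 10 genes above background on MBELN 3 only, a pattern held by 3.01% of all probe sets.

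**Figure D3:**
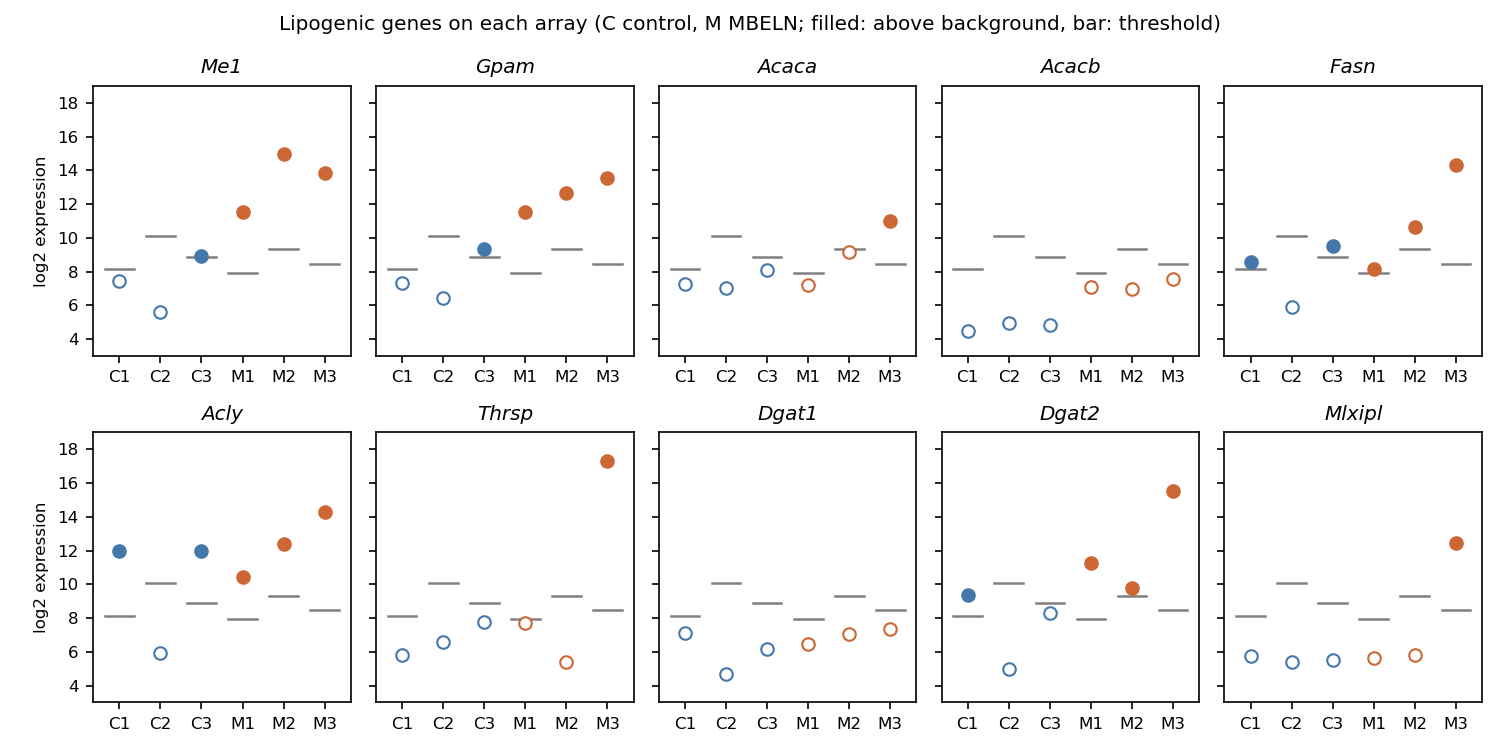
Log2 expression of the 10 genes on control (C1 to C3, blue) and MBELN arrays (M1 to M3, orange); each point is 1 array, grey bars are the background threshold of that array, and filled points lie above it. Thrsp and Mlxipl are filled only on M3, at 17.32 and 12.44, Acacb and Dgat1 are filled on no array, and Me1 and Gpam are filled on all 3 MBELN arrays and on C3.

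For the comparison of MBELN with control, limma's test called 0 of 22206 probe sets (0% higher and 0% lower at an adjusted p of 0.05; the smallest adjusted p was 0.936), and 422 had an unadjusted p under 0.05. None of the 10 genes passed. The genes were proposed with this contrast in view, Me1, Gpam and Acacb because of it, so their differences are a description. All 10 fitted differences were above 0, with a median of 2.75 log2 units. Over all probe sets 49.6% were above 0 with a median of -0.01, and over those above background on at least 1 array 70.1% were, with a median of 0.80. All 11 housekeeping genes measured were above 0 too, with a median of 2.21, and 0 of them were above background on control 2. A difference above 0 is thus not particular to the lipogenic genes. In 4 of the 10 (Me1, Gpam, Acacb and Dgat2) every MBELN array exceeded every control array. This held for 3.58% of all probe sets and for 5.29% of those above background on at least 1 array.

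Every fitted difference was lower when the flat control 2 and the liver-marked MBELN 3 were left out together, an alternative chosen after the data were seen. Me1 then had a difference of 5.05, Gpam of 3.76 and Dgat2 of 1.66, each with control values partly below background. Acly lay at -0.53, Thrsp at -0.23, Mlxipl at 0.11, Fasn at 0.36 and Acaca at 0.49. Acacb, at 2.39, and Dgat1, at 0.15, were below background on every array, so their fitted values are no measured differences. The median over all 10 was 0.42, against 2.75 with all arrays, and 0.06 over all probe sets. Thrsp was at -0.16 without MBELN 3 alone. Thrsp is thus above 0 in the group comparison through 1 array. Without MBELN 1, the array with heart markers, 8 genes had separate groups instead of 4, a count that can only stay or rise when an array is left out. The share of all probe sets with separate groups was not counted with an array left out, so the rise cannot be set against a base rate. Of the 4 added (Acaca, Fasn, Acly and Mlxipl), Mlxipl came in through 5.83 on MBELN 2 against 5.77 on control 1, both below background. Each remaining group holds 2 arrays in the fit without control 2 and MBELN 3, and their tissue content differs as before.

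**Figure D4:**
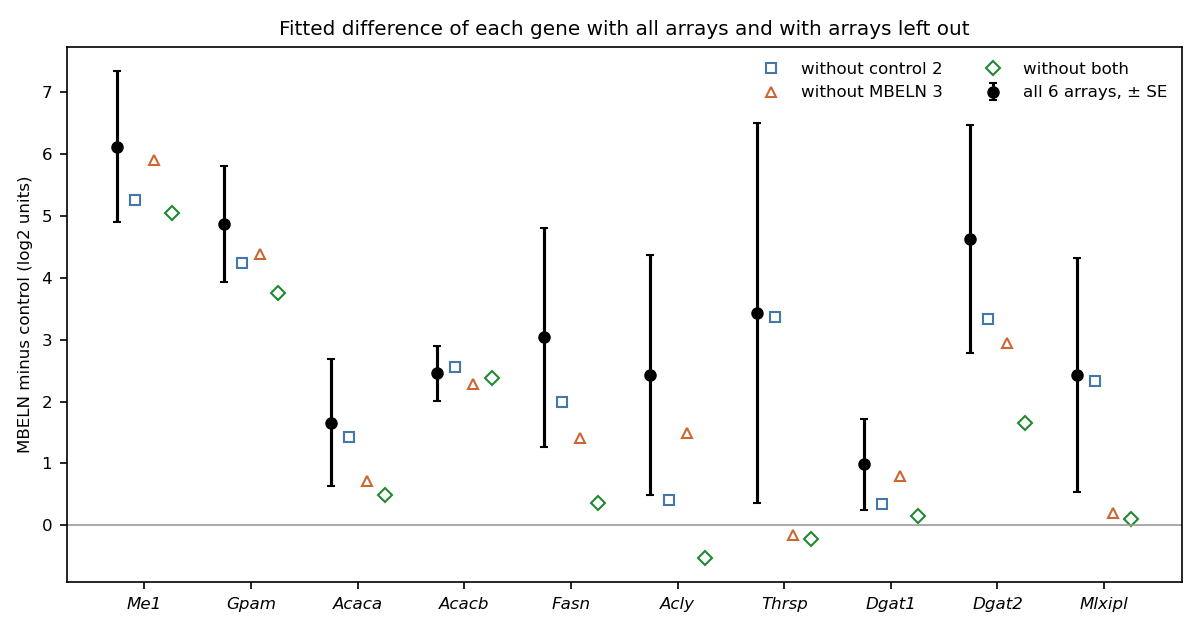
Fitted MBELN minus control difference in log2 units for each gene, with all 6 arrays (black, ± SE) and without control 2 (squares), without MBELN 3 (triangles) and without both (diamonds). Without both arrays Me1 and Gpam fall to 5.05 and 3.76, and Acly and Thrsp to -0.53 and -0.23.

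The genes also differed in how alike their profiles were over the 6 arrays, each centred on its own mean. Me1, Gpam and Acacb were selected on their differences over these same arrays, so likeness among them follows in part from that choice. The closest pair was Me1 and Gpam, with a root mean square difference of 0.997 log2 units, and the most distant Me1 and Thrsp, with 4.07. Acaca and Acacb differed by 1.12, and Fasn and Acly by 1.27. Among 5354 other genes above background on at least 2 arrays, those nearest to Me1 were Palmd (1.15), the long-chain acyl-CoA synthetase gene Acsl5 (1.30) and Bckdhb (1.45), which encodes a subunit of the branched-chain keto acid dehydrogenase. Nearest to Gpam were Bckdhb (0.47), the kinase gene Sik1 (1.05) and Palmd (1.11). Bckdhb stood at 5.15, 4.33 and 7.19 on the controls and at 8.97, 9.18 and 11.20 on MBELN arrays. All control values of Bckdhb, Sik1 and Palmd lay below background, so that they passed the filter through MBELN arrays alone. Their likeness rests in part on values that are not measured levels. Sik1 stood at 6.99, 4.50 and 8.62 on the controls and at 7.95, 10.96 and 11.34 on MBELN arrays. Palmd stood at 7.11, 4.49 and 8.04 on the controls and at 12.65, 12.71 and 11.68 on MBELN arrays. All 4 of these genes were lowest on control 2, like Me1 and Gpam.

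Of 64 further genes listed for the pathway, 57 were measured and the other 7 are not analysed here. By limma 0 of 57 passed in either direction (0% of all probe sets), and 6 had an unadjusted p under 0.05. Differences above 0 were found for 50 of 57, with a median of 1.60, and 27 peaked on MBELN 3. The shares were 49.6% and 12.8% of all probe sets, and 70.1% and 19.1% of those above background on at least 1 array. Among the housekeeping genes 11 of 11 differences were above 0, with a median of 2.21. Groups did not overlap for 7 higher (Idh2, Acsl5, Gpat3, Insig2, Slc2a2, Plin4 and Cidea) and 2 lower genes (Me2 and Gpat2), beside 3.58% and 3.26% of all probe sets. Of the 7, Acsl5 alone was above background on all 3 MBELN arrays, and Gpat3, like Gpat2, was on no array. Slc2a2 was at 18.30 on MBELN 3 but at 5.26 and 5.25 on MBELN 1 and 2, below background there. Insig2, Slc2a2 and Gpat2 are named after their values were seen.

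NADPH can also come from the pentose phosphate pathway, from isocitrate dehydrogenases and from the mitochondrial malic enzymes, and 4 of 6 such genes had differences above 0, beside the 70.1% of probe sets above background on at least 1 array. Me2, a mitochondrial relative of Me1, went the other way from it, at 8.67, 7.19 and 7.05 on the controls and 6.69, 5.52 and 4.68 on MBELN arrays. Only control 1 was above background for Me2, so the lower MBELN values are not measured levels. Idh1, the cytosolic isocitrate dehydrogenase, was at 12.46, 6.91 and 8.67 on the controls and 10.79, 12.71 and 15.91 on MBELN arrays, highest on MBELN 3. Its mitochondrial relative Idh2 was highest on MBELN 1, the array with heart markers, at 17.22, and at 9.11 and 11.59 on MBELN 2 and 3. Pgd, of the pentose phosphate pathway, had overlapping groups, highest on control 1 at 10.98. The third malic enzyme gene, Me3, was above background on control 3 (10.72) and MBELN 1 (10.76) and on no other array.

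The list of acetyl-CoA and malonyl-CoA supply, which also holds genes of mitochondrial fatty acid synthesis, had 8 of 8 differences above 0, with a median of 0.65. Of probe sets above background on at least 1 array, 70.1% were above 0 and 19.1% peaked on MBELN 3. Of the 8, 3 were above background on no array (Mcat, Mecr and Acsf3), and 6 were highest on MBELN 3, Mcat and Acsf3 among them. These 3 are named after their values were seen. Slc25a1, which exports citrate from mitochondria for Acly, was at 12.78, 5.19 and 9.61 on the controls and 9.67, 11.22 and 16.57 on MBELN arrays, and like Acly was above background on all but control 2. Of the synthetases that make acetyl-CoA from acetate, mitochondrial Acss1 was highest on MBELN 1, at 13.02, and cytosolic Acss2 on MBELN 3, at 11.72. Acsl5, which activates long-chain fatty acids, was at 10.82, 5.29 and 9.21 on the controls and at 10.97, 15.20 and 14.96 on MBELN arrays. Its MBELN 1 value exceeded control 1 by little, and the groups were just separate. Its relative Acsl4 was highest on MBELN 2, at 11.81, with overlapping groups, and Acsl6 was above background on control 3 alone, at 9.83.

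Of 13 genes acting beside Gpam in glycerolipid synthesis, 9 had differences above 0, again beside that 70.1%, with a median of 0.21, and 5 were above background on no array. Gpat3, a microsomal relative of Gpam, was among these, at 4.64, 4.84 and 5.15 on the controls and 6.19, 6.17 and 7.06 on MBELN arrays. Agpat3, an acyltransferase of the next step, was at 11.38, 6.92 and 14.70 on the controls and 14.22, 16.53 and 15.92 on MBELN arrays, while Agpat1 was highest on control 3, at 14.65. Lpin1, a phosphatidate phosphatase, was at 17.15 on MBELN 3 and at 6.06 to 11.30 elsewhere.

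Among the regulators other than Thrsp and Mlxipl, Nr1i3 (12.28) and Insig2 (10.85) were likewise above background on MBELN 3 alone, and the other 8 on at least 2 arrays. Nr1i3, the nuclear receptor CAR, is named after its values were seen. All 10 measured had differences above 0, with a median of 1.55, and 9 of 10 were above background on MBELN 3, against 6 and 3 for MBELN 1 and 2 and 7, 0 and 2 for control 1, 2 and 3. Of all probe sets 23.1% were above background on MBELN 3. The housekeeping genes had 11 of 11 differences above 0, with a median of 2.21. Mlx, the partner with which ChREBP binds DNA, was highest on control 1, at 12.95, and at 11.19 on MBELN 3, so it did not share the single peak of Mlxipl. Scap, which escorts SREBP precursors, and Insig1, which retains them, were above background on all arrays but control 2, and were highest on MBELN 3, at 11.72 and 13.60. Mid1ip1, a paralogue of Thrsp named here for that relation after its values were seen, was highest on MBELN 1, at 10.44, and at 9.18 on MBELN 3. Of 5 genes of sugar transport and use, listed as glucose entry to lipogenesis, 4 peaked on MBELN 3, beside 12.8% of all probe sets. Among them were Khk, the fructose kinase, at 17.63 (4.30 to 8.03 elsewhere), Pklr, the pyruvate kinase controlled by ChREBP, at 15.26 (4.41 to 9.48) and Gpd1, which makes glycerol 3-phosphate, at 13.32 (5.11 to 9.96).

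Genes of triglyceride storage and release had 12 of 12 differences above 0, with a median of 2.60. The housekeeping genes had 11 of 11, with a median of 2.21, and 70.1% of probe sets above background on at least 1 array were above 0. The storage and release genes were above background most often on MBELN 1, for 9 of 12, against 5 and 6 for MBELN 2 and 3 and 2, 1 and 1 for the controls. Cidea, a lipid droplet protein of brown fat and sebaceous glands, was at 5.31, 6.54 and 4.82 on the controls and at 9.06, 10.60 and 7.22 on MBELN arrays, above background on MBELN 1 and 2. Plin4, a droplet coat protein, was above background on MBELN 1 alone, at 9.39. Plin2, a coat protein of many tissues, was highest on MBELN 3 (14.87), the lipase gene Pnpla2 on MBELN 1 (14.00) and Mgll, which encodes monoacylglycerol lipase, on MBELN 2 (13.54), each with overlapping groups.

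Marker lists of cells known for lipogenesis were set beside these values. All 15 liver markers were above background on MBELN 3, between 18.25 and 19.93, and at most 3 on any other array. Of 14 adipocyte markers, 7, 2 and 5 were above background for MBELN 1, 2 and 3, and 4, 0 and 0 for the controls. Fabp4, the fatty acid binding protein of adipocytes and endothelium, was at 17.99 on MBELN 1 and 14.18 on MBELN 2, and Car3, a carbonic anhydrase of fat, muscle and liver, at 18.12 on MBELN 3, whereas the defining adipocyte genes Lep and Plin1 were above background on no array. Adipoq, the adipocyte hormone adiponectin, was above background on control 1 (10.27) and MBELN 1 (8.64), Pparg, the regulator of fat cell formation, on control 1 (10.48) and MBELN 3 (10.38), and the lipase gene Lipe on MBELN 1 (9.04). These 5 are named after their values were seen. The brown adipocyte list was highest on MBELN 1, with 5 of 8 markers above background, among them Cox7a1 and Cox8b (17.71), which heart muscle uses too. Ucp1, the uncoupling protein of brown fat, named after its values were seen, was above background on MBELN 1 alone, at 10.42. Of 8 sebaceous gland markers, 4 were above background on MBELN 2, 1 on control 3 and 0 on the other 4 arrays, with Krt79 at 17.17 and Awat2, a wax synthase, at 16.70 on MBELN 2. MBELN 2, where Me1 peaked, thus carried 4 of 8 sebaceous markers, and the median of that list there, 8.69, lay below the threshold of 9.34. It also carried 13 of 13 markers of squamous epithelium and 11 of 12 of skeletal muscle. MBELN 3, where the other 9 genes peaked (Acacb and Dgat1 below background), carried liver markers. The part of these tissues in the lipogenic values was not tested.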

How the data were processed

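Colon-labelled samples, 3 control and 3 MBELN, were measured on 1 array each. The deposited table gives log2 expression for 28846 rows, a scale read from its values (3.38 to 19.93). Per the submitters' processing notes, the software was Transcriptome Analysis Console 4.0, and how probes were summarised or arrays normalised is not given in the sources used here. No further normalisation was applied, and 6640 control rows were left out, which left 22206 probe sets, of which 19572 had 1 gene symbol and 2634 none.

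Groups were compared with limma 3.58.1 in R 4.3.3 (lmFit and eBayes, 2-sided, Benjamini-Hochberg over all 22206), tested on simulated data. For arrays, their number limits the precision. Python 3.11.15 made summaries and plots. The members, gene lists and tests were chosen with earlier results of these data known, as was the background threshold. Besides the members, genes were named by a written rule: for Me1 and Gpam the 3 nearest profiles among genes above background on at least 2 arrays (without members, predicted genes, olfactory and vomeronasal receptors and small RNAs), of each pathway list those with an unadjusted p under 0.05 and up to 3 of highest mean, and of each marker list up to 2 by highest value on the array where its median was highest; exceptions are marked. Alternatives were quantile normalisation, equal medians, a filter on dim probe sets, a trended robust prior, the replicate number as a block, averaging the probe sets of a gene, the 90th and 99th percentiles as background, and leaving out arrays.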

Additional observations from a re-analysis of the deposited data

How the results depend on the processing

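The count of 0 probe sets called by limma, over all 22206 and over the 57 pathway genes, held under every alternative for which it was counted, leaving out each array included. It was not counted after averaging the probe sets of a gene. The median difference of the 10 genes was 2.75 log2 units. Under the processing choices that can move it, it lay between 2.60 (quantile normalisation) and 3.24 (only probe sets above background on at least 1 array, which keeps 8 of the 10). A trended robust prior leaves fitted differences as they are, and averaging probe sets has no effect where each gene has 1 probe set. With 1 array left out the median lay between 1.45 (without MBELN 3) and 4.04 (without MBELN 1). It was 0.42 without control 2 and MBELN 3 together, where Acly stood at -0.53 and Thrsp at -0.23. Thrsp lay between -0.16 (without MBELN 3) and 5.80 (without MBELN 2) with 1 array left out. Equal array medians moved the median of all probe sets from -0.01 to 0.11, and all 10 differences were above 0 under this scaling and under quantile normalisation. The number of genes with separate groups was 4 to 8 with 1 array left out, where it can only stay or rise. The share over all probe sets was not counted for these settings. Genes above background on control 1 numbered 5 at the 90th percentile of the negative controls and 1 at the 99th. At the 99th they numbered 0 on control 3, 3 on MBELN 1 and 1 on MBELN 2. For the replicate number as a block, deviations of same-numbered arrays correlated at 0.11, 0.12 and -0.05, and those of differently numbered arrays at -0.18 to 0.096. Because the arrays differ in tissue content, these values cannot show whether the numbers pair the samples. With the replicate block 0 probe sets were called, the median difference was 2.75, which a block cannot change in this balanced design, and 624 instead of 422 probe sets had an unadjusted p under 0.05. Signals under background limit Acacb and Dgat1 on every array, Acaca, Thrsp and Mlxipl on every array but MBELN 3, and Me1, Gpam and Dgat2 on 2 control arrays each, and differences against control 2 are differences against an array without measured expression of these genes.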
